A study of Mus musculus with 6 samples.

Results

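Hox genes encode homeodomain transcription factors that lie in 4 clusters, A to D, and are numbered by paralogue group from the 3′ to the 5′ end of a cluster. In the embryo, genes with low numbers are switched on first and reach furthest forward along the body axis, and genes with high numbers mark the trunk, the limbs and the tail. Many adult mesenchymal cells keep part of this pattern, which is often called positional memory. The cardiac neural crest (CNC) leaves the posterior hindbrain, a region of low-numbered Hox genes, and low-numbered Hox genes are also known from part of the secondary heart field (SHF), where retinoic acid induces them.

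The genes described here are 38 Hox genes of the A, B, C and D clusters, taken by symbol from the 24421 rows of a bulk RNA sequencing matrix. All 38 symbols were found as rows. Cells carried a conditional CAG-Sun1/sfGFP reporter, which puts GFP at the nuclear envelope once Cre has acted, together with either Mef2cSHF Cre (SHF lineage) or Wnt1-Cre2 (CNC lineage). Mice of strain 129S6/SvEv were used at 8 weeks. Root and ascending segments of the aorta were digested and living GFP+ cells sorted, so that the gate selects a lineage and not a cell type. There were 3 SHF and 3 CNC libraries, and the label of every library carries WT, for wild type. Where values are given for all libraries, they stand in the order of replicates 1, 2 and 3, SHF before CNC. The authors deposited levels as TPM, which are relative to the total of the library and scaled for transcript length. TPM do not keep the number of reads, so depth is unknown here and no detection limit can be given. A gene at 0 TPM is given as listed at 0, not as absent.

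The libraries differed in more than lineage. Rows above 0 TPM ranged from 9255 to 11858 in SHF libraries and from 9653 to 11334 in CNC libraries. All 10 genes of a fibroblast list were above 0 in every library. Their summed level was 28810 to 31790 TPM in SHF and 39900 to 53830 TPM in CNC libraries. The sum of 12 smooth muscle genes was 1379 to 3145 TPM over both lineages. The fibroblast list holds the collagen genes Col1a1, Col1a2 and Col3a1. Such sums follow the most abundant genes of a list and do not give shares of cell types. Sums of 8 endothelial genes (80.9 to 580.7 TPM in SHF, 22.9 to 60.96 TPM in CNC), 7 cardiomyocyte genes (87.44 to 115.8 TPM in SHF, 0 to 37.67 TPM in CNC) and 7 Schwann cell genes (6.46 to 27.95 TPM in SHF, 35.17 to 112 TPM in CNC) did not overlap between the lineages. Of the defining markers, the cardiomyocyte genes Myl2 and Myl7 were listed at 0 in all 6 libraries. Sums of 9 leukocyte genes, 6 melanocyte genes and 4 erythroid genes overlapped between the lineages, at 177.9 to 386.6, 22.27 to 35.14 and 0 to 353.3 TPM in SHF and 19.54 to 352, 10.31 to 23.06 and 0 to 48.67 TPM in CNC libraries. The leukocyte genes Ptprc, Adgre1 and Cd3e, the melanocyte genes Pmel, Dct, Tyrp1 and Mlana and the erythroid gene Hbb-bs were listed at 0 throughout. SHF replicates 2 and 3 had Xist at 51.95 and 38.76 TPM and the other 4 libraries had it listed at 0, while the Y-linked Ddx3y was listed at 0 in the 2 libraries with Xist and measured 61.27 TPM in the remaining SHF library and 42.24 to 52.81 TPM in CNC libraries.

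To ask which part of the Hox code was present in cells of either lineage, the genes were ordered by cluster and paralogue number. Among the listed genes, values above 0 came from the 3′ part of the clusters. Of the 17 listed genes with paralogue numbers 1 to 6, 9 were above 0 TPM in at least 1 library, and of the 21 genes with numbers 7 to 13, 0 were. The 9 genes were Hoxa2, Hoxa3, Hoxa4, Hoxa5, Hoxb2, Hoxb3, Hoxb4, Hoxb6 and Hoxd3. They include both genes of paralogue group 2 and all 3 genes of group 3, then 2 of 4 in group 4, 1 of 3 in group 5 and 1 of 3 in group 6. By cluster, 4 of 10 listed genes of cluster A, 4 of 10 of cluster B, 0 of 9 of cluster C and 1 of 9 of cluster D were above 0 in some library.

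**Figure D1:**
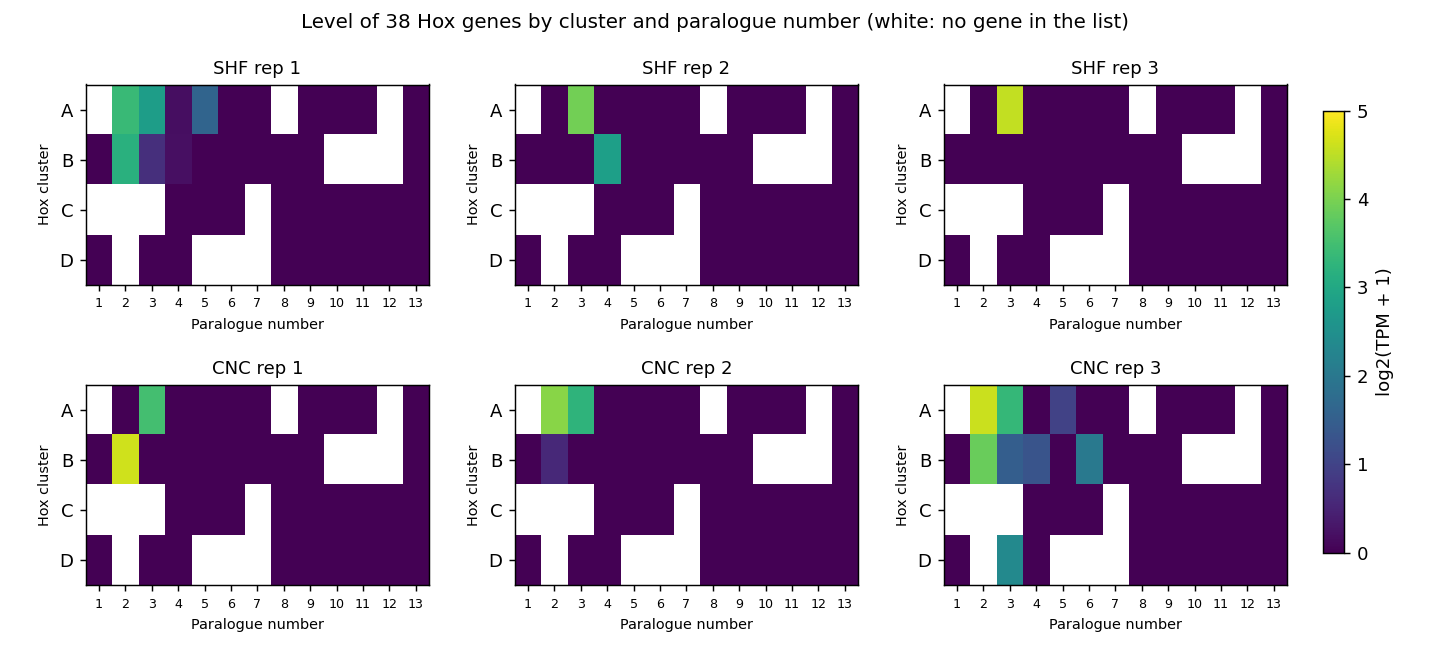
Level of the 38 listed Hox genes as log2(TPM + 1), drawn as 1 grid per library with the cluster on the vertical axis and the paralogue number on the horizontal axis. White squares hold no listed gene and the darkest squares are listed at 0. All coloured squares lie at paralogue numbers 2 to 6, and the row of cluster C is dark in all 6 libraries.

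The other 29 genes were listed at 0 in all 6 libraries. In cluster A these were Hoxa6, Hoxa7, Hoxa9, Hoxa10, Hoxa11 and Hoxa13, and in cluster B they were Hoxb1, Hoxb5, Hoxb7, Hoxb8, Hoxb9 and Hoxb13. Cluster C had no value above 0 for Hoxc4, Hoxc5, Hoxc6, Hoxc8, Hoxc9, Hoxc10, Hoxc11, Hoxc12 or Hoxc13. In cluster D, Hoxd1, Hoxd4, Hoxd8, Hoxd9, Hoxd10, Hoxd11, Hoxd12 and Hoxd13 were at 0. The share of genes above 0 in at least 1 library was 23.7% of the 38 Hox genes against 58.1% of all 24421 rows, and the share above 0 in all 6 libraries was 2.63% (1 gene, Hoxa3) against 26.1%.

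Of the 38 genes, Hoxa3 was the one found in every library. It specifies derivatives of the third pharyngeal arch, among them the thymus and parathyroid, and the arch artery that becomes the carotid. Its level was 5.85, 14.3 and 22.41 TPM (SHF), and 10.35, 8.54 and 9.03 TPM (CNC). The CNC values lay close together and inside the range of the SHF values. The means were 14.2 ± 8.28 TPM in SHF and 9.31 ± 0.936 TPM in CNC libraries (SD, n = 3 each), and the log2 fold change, SHF minus CNC on the log2(TPM + 1) scale, was 0.39 with a 95% interval from -2.04 to 2.82 (limma, adjusted p = 0.962). Of the rows above 0 TPM in the same library, 27.8%, 36% and 50.7% (SHF) and 32.4%, 32.1% and 36.9% (CNC) were below Hoxa3, so that in 5 of 6 libraries it was under the median of the detected rows.

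The highest levels of Hoxa2 and Hoxb2 were seen in CNC libraries. Hoxa2 is the selector gene of the second pharyngeal arch, where it sets the skeletal fate of neural crest cells, and Hoxb2 is known for its part in hindbrain segments and the facial nerve. Hoxa2 was at 9.54, 0 and 0 TPM (SHF), and at 0, 16.36 and 23.12 TPM (CNC). Hoxb2 was at 8.02, 0 and 0 TPM (SHF) and at 24, 0.5 and 13.4 TPM (CNC). For both genes the lineages overlapped, since SHF replicate 1 was above the lowest CNC library, and the lowest CNC library was a different one for each gene. In SHF libraries neither gene exceeded 9.54 TPM. CNC libraries ran from 0 to 23.12 TPM for Hoxa2 and from 0.5 to 24 TPM for Hoxb2.

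The 250 bases before the start of Hoxa2 are shown because it is the gene of group 2 that was high in 2 of 3 CNC libraries and has an entry in the promoter sequences used here. They lie at chr6:52164832-52165081 on the minus strand of GRCm38.p6, from RefSeq, and are written 5′ to 3′ toward the gene. Capitals mark, first, a match to TGATNNAT, letters bound by Pbx and Hox proteins together, which lies here on the opposite strand from 111 to 104 bases before the start, and then a match to TGACAG, the letters bound by Meis proteins, from 44 to 39 bases before it.
Hoxa2: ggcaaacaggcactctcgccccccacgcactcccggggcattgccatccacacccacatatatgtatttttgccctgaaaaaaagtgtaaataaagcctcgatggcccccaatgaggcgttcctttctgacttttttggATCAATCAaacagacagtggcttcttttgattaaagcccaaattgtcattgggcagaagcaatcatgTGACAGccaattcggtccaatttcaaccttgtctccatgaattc
Searched on both strands over windows of 250 bases, TGATNNAT was in 7.68% of 32851 windows of all genes and in 4 of 24 windows of 22 listed Hox genes, those of Hoxa2, Hoxb1, Hoxb8 and Hoxd11. TGACAG was in 15.9% of all windows and in 2 of the 24, those of Hoxa2 and Hoxa3. The matches do not overlap each other in Hoxa2 and describe letters only.

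Neither difference passed the test. The log2 fold change of Hoxa2 was -1.77 with a 95% interval from -5.14 to 1.6 (limma, adjusted p = 0.895), and that of Hoxb2 was -1.97 with an interval from -5.15 to 1.21 (adjusted p = 0.887). Over the 10185 genes that reached 1 TPM in 3 or more libraries, 0% had an adjusted p under 0.05 and 597 had an unadjusted p under 0.05. Of the 38 Hox genes, 3 passed this filter on low values, and 0 of the 3 were called at the adjusted threshold or at an unadjusted p under 0.05. SHF and CNC libraries did not overlap for 11.8% of the genes tested and for 0 of the 3 Hox genes. The smallest two-sided p that exact permutation of these 6 libraries allows for one gene is 0.1.

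Single libraries decided the overlap. Without SHF replicate 1, 2 Hox genes no longer overlapped, Hoxb2 with the higher level in CNC libraries and Hoxa3 with the higher level in SHF libraries, while 25% of all genes tested did not overlap in the same 5 libraries. Without CNC replicate 1 it was Hoxa2 alone (20.1% of all genes), and without CNC replicate 2 it was Hoxb2 alone (20.9%), both with the higher level in CNC. SHF replicates 2 and 3, with Hoxa2 and Hoxb2 at 0, are the libraries with Xist, and SHF replicate 1, with both genes above 0, has Ddx3y as the CNC libraries do. The part of sex in these levels was not tested.

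**Figure D2:**
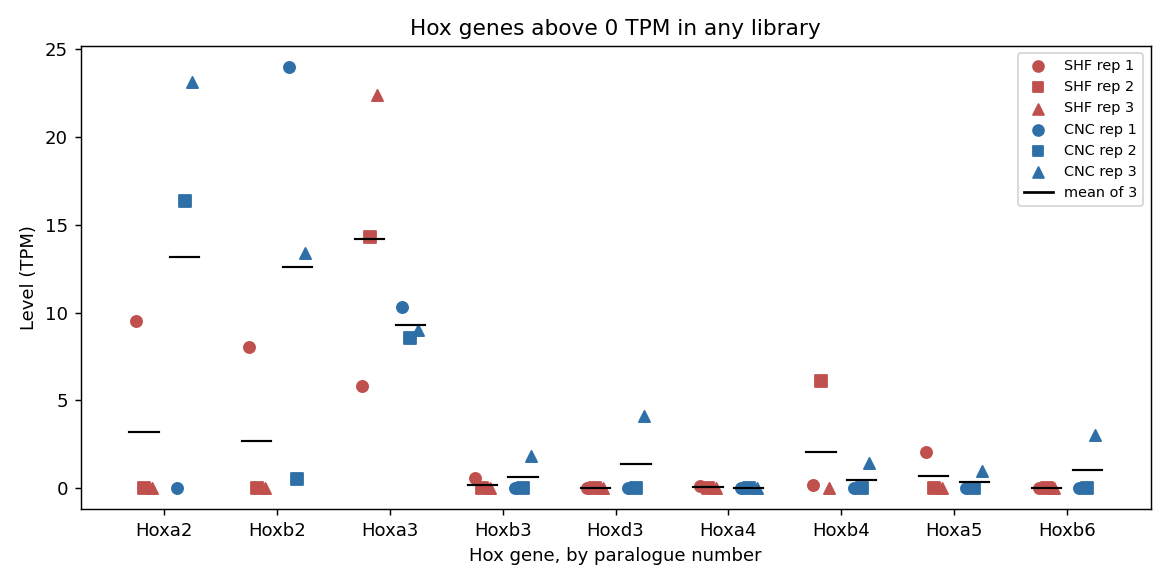
Level in TPM of the 9 Hox genes above 0 in any library, ordered by paralogue number, with 1 point per library (red SHF, blue CNC, symbol for the replicate) and a black line at the mean of each lineage. Hoxa3 is above 0 in all 6 libraries, Hoxa2 and Hoxb2 reach 23.12 and 24 TPM in CNC libraries, and the genes from paralogue 4 on stay at or under 6.09 TPM.

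The remaining 6 Hox genes were low and came from few libraries. Hoxb4 reached 6.09 TPM in SHF replicate 2, with 0.16 TPM in SHF replicate 1 and 1.45 TPM in CNC replicate 3. Hoxb3, whose paralogue group also holds Hoxa3 and Hoxd3, had 0.6 TPM in SHF replicate 1 and 1.83 TPM in CNC replicate 3. Hoxa5, known for its role in the developing lung and respiratory tract, had values in the same libraries, 2.04 TPM in SHF replicate 1 and 0.99 TPM in CNC replicate 3. Hoxa4 had a single value, 0.14 TPM in SHF replicate 1, and Hoxb6 and Hoxd3 were at 3.05 and 4.1 TPM in CNC replicate 3. Each of these genes was listed at 0 in the libraries not named, and the 6 did not pass the filter on low values. With the filter removed, 0 Hox genes passed the adjusted threshold and 0 were without overlap.

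The number of Hox genes above 0 was uneven between replicates of a lineage. SHF libraries held 7, 2 and 1, and CNC libraries 2, 3 and 8. The libraries with 7 and 8 Hox genes, SHF replicate 1 and CNC replicate 3, were also those with the most rows above 0, 11858 and 11334, and CNC replicate 2 with 3 Hox genes was next with 10698. In the other 3 libraries there were 1 or 2 Hox genes and 9255 to 10126 rows above 0. Values of 0 were common at these levels: 66.6% of the 3188 genes with a mean from 5 to under 15 TPM were listed at 0 in at least 1 library and 20.2% in at least 3. The part of library complexity in the Hox counts was not tested.

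**Figure D3:**
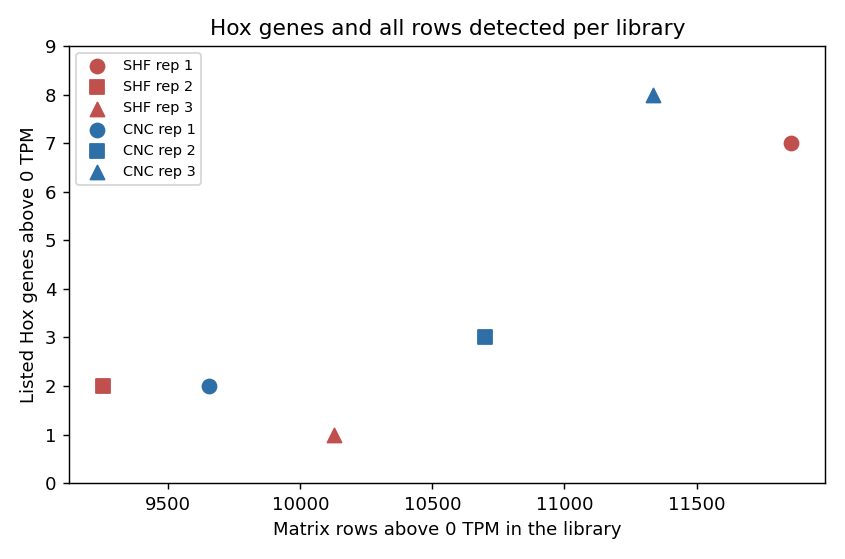
Number of listed Hox genes above 0 TPM (vertical axis) against the number of all matrix rows above 0 TPM (horizontal axis), with 1 point per library. The 3 libraries with 10698 or more rows hold 3 to 8 Hox genes and the other 3 hold 1 or 2, with both lineages on each side.

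Summed over the 38 genes, the Hox level was 26.35, 20.39 and 22.41 TPM (SHF) and 34.35, 25.4 and 56.97 TPM (CNC). The lineages overlapped, with CNC replicate 2 below SHF replicate 1. The means were 23.1 ± 3.03 TPM and 38.9 ± 16.3 TPM (SD, n = 3 each), a difference of -15.86 TPM that shrank to -6.83 TPM without CNC replicate 3. In bulk samples, fewer expressing cells and less RNA per cell cannot be told apart.

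The paralogue groups made up these sums in different proportion. Group 2 (Hoxa2 and Hoxb2) was at 17.56, 0 and 0 TPM (SHF) and at 24, 16.86 and 36.52 TPM (CNC). The groups overlapped by 1 pair of libraries, SHF replicate 1 just above CNC replicate 2, with means of 5.85 ± 10.1 and 25.8 ± 9.95 TPM (SD, n = 3 each). Group 3 (Hoxa3, Hoxb3 and Hoxd3) was at 6.45, 14.3 and 22.41 TPM (SHF) and 10.35, 8.54 and 14.96 TPM (CNC), with means of 14.4 ± 7.98 and 11.3 ± 3.31 TPM. The CNC values of group 3 lay inside the SHF range, and the difference of the means, 3.1 TPM, turned to -0.91 TPM without SHF replicate 3. Groups 4, 5 and 6 together never exceeded 6.09 TPM in a library. The mean paralogue number weighted by TPM was 2.5, 3.3 and 3 (SHF) and 2.3, 2.34 and 2.58 (CNC), again with SHF replicate 1 on the CNC side of the other SHF libraries. These sums over chosen genes are descriptions and carry no test. The fibroblast and Schwann cell sums, higher in CNC, and the endothelial and cardiomyocyte sums, higher in SHF, moved with the lineages as given above, and their part in the group 2 level was not tested.

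**Figure D4:**
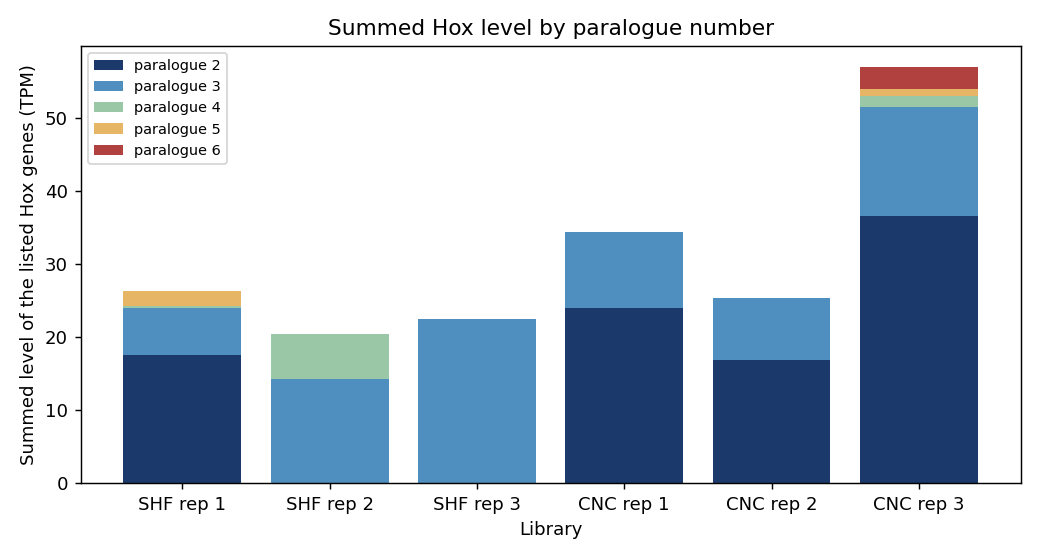
Summed level of the listed Hox genes in TPM for each library, with the bars divided by paralogue number. Paralogue 2 (darkest) is present in all 3 CNC libraries and in SHF replicate 1, while the bar of SHF replicate 3 is paralogue 3 alone at 22.41 TPM.

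By cluster, the A genes summed to 17.57, 14.3 and 22.41 TPM (SHF) and 10.35, 24.9 and 33.14 TPM (CNC). The B genes summed to 8.78, 6.09 and 0 TPM and to 24, 0.5 and 19.73 TPM in the same order. Lineages overlapped for both clusters, and the difference for cluster A, -4.7 TPM, turned to 0.47 TPM without CNC replicate 3. Cluster D had a value in CNC replicate 3 alone (Hoxd3), and cluster C had none.

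The study selected lineage-exclusive transcripts with a threshold of 5 TPM in the expressing lineage. Exclusive was taken here as above 5 TPM throughout one lineage and at 0 throughout the other, the latter value being a choice made here, and this was met by 0.139% of all rows and by 0 of the 38 Hox genes. It was also met by 0 Hox genes when the threshold was 1 or 10 TPM, when under 1 TPM sufficed in place of 0, and when any library was left out.

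The genes with values above 0 lie in 3 of the 4 clusters. Coordinates are those of GENCODE M21 on GRCm38, which is the assembly called mm10 that the authors used, and all 9 genes are annotated as protein-coding. On chromosome 6, minus strand, Hoxa2 runs from 52162417 to 52164831, Hoxa3 from 52169062 to 52213336, Hoxa4 from 52189671 to 52191753 and Hoxa5 from 52201754 to 52204587. On chromosome 11, plus strand, Hoxb6 runs from 96292476 to 96301569, Hoxb4 from 96318267 to 96321638, Hoxb3 from 96323326 to 96347930 and Hoxb2 from 96350525 to 96354012. Hoxd3 lies on chromosome 2, plus strand, from 74711927 to 74748442. Exons of neighbouring or antisense genes cover 15% of the exon bases of Hoxa2, 27.1% of Hoxa3, 16% of Hoxa4, 27.3% of Hoxb2, 52.9% of Hoxb3 and 62.8% of Hoxd3, and the SmartSeq2 protocol does not mark the strand, so reads there could belong to either gene. Exons of Hoxa5, Hoxb4 and Hoxb6 are not shared in this annotation.

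Of 15 noncoding genes of the clusters in the matrix, 2 were above 0 in some library, both near Hoxa2. Hoxaas2 lies between Hoxa2 and Hoxa3 on chromosome 6, from 52165674 to 52169564 on the opposite strand, and some of its exon bases are also exon of Hoxa3. It was at 6.86, 0 and 9.15 TPM (SHF) and at 4.01, 5.87 and 7.76 TPM (CNC). The lineages overlapped (log2 fold change -0.64, limma adjusted p = 0.948). Hotairm1, on chromosome 6 from 52156902 to 52162119, was listed at 0 in all SHF libraries, and CNC libraries measured 4.06, 4.84 and 0 TPM. The other 13, among them Hotair, Hottip and Haglr from the 5′ part or other clusters and the precursor genes of miR-10 and miR-196, were listed at 0. The protocol selects polyadenylated RNA and would not capture mature miRNAs.

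Hox proteins bind DNA with TALE homeodomain partners of the Pbx, Meis and Pknox families. Of 10 cofactor genes, 9 were above 0 in some library, 5 in all 6, 7 were tested and 0 were called, and their median log2 fold change was 0.73 against 0.02 over all genes tested. Meis1 was at 37.94, 17.9 and 47.23 TPM (SHF) and 16.45, 66.84 and 83.3 TPM (CNC), an overlap at both ends. Meis2 was at 6.02, 43.52 and 34.53 TPM and at 2.92, 29.18 and 31.51 TPM in the same order, lowest in replicate 1 of both lineages. Pbxip1, which encodes a protein that binds Pbx factors, was at 60.08, 64.57 and 31.4 TPM and at 30.61, 12 and 68.67 TPM. Pknox1 was at 4.63, 39.41 and 17.42 TPM and at 23.73, 23.66 and 0 TPM.

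Meis3, a partner of Hox proteins in the hindbrain, was chosen after its values were seen. It was at 1.38, 0.48 and 0 TPM (SHF) and at 68.86, 0 and 11.9 TPM (CNC), with a log2 fold change of -2.67 (limma adjusted p = 0.874). CNC replicate 1 held the high value, and the lineages overlapped. The log2 fold change was -1.24 without CNC replicate 1 and -4.3 without CNC replicate 2.

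Polycomb complexes keep Hox genes silent and Trithorax complexes keep them active. Of 15 Polycomb genes, 10 were tested and 0 were called, with a median log2 fold change of 0.55. Of 8 Trithorax and demethylase genes, 7 were tested and 0 were called, with a median of 0.68. The median absolute log2 fold change of all genes tested was 0.71. Ezh2, Suz12, Bmi1 and Kmt2b, chosen later for their low levels, were not tested. Their means over the libraries were 0.622, 0.118, 0.752 and 0.397 TPM. For 3 tested genes of these lists the lineages did not overlap. Kdm6b, a demethylase that removes the Polycomb mark, was at 63.42, 60.37 and 70.67 TPM (SHF) and at 28.01, 28.42 and 32.76 TPM (CNC). Its replicates were close together and its log2 fold change was 1.1 ± 0.56 (SE, limma adjusted p = 0.874). Jarid2, which recruits the Polycomb methyltransferase, was at 4.84, 66.28 and 14.06 TPM and at 2.54, 0.96 and 0.69 TPM (log2 fold change 2.99, limma adjusted p = 0.83). Phc1, a subunit of the other Polycomb complex, was at 0.79, 0.2 and 2.02 TPM and at 20.87, 6.37 and 9.61 TPM (log2 fold change -2.68, limma adjusted p = 0.82). Across the 6 lists of partners, regulators and neighbours, 32 of 68 genes in the matrix were tested and 0 were called. An unadjusted p under 0.05 was given to 2 of the 32 (Jarid2 and Phc1), against 597 of all 10185 genes tested, and 3 of the 32 did not overlap between the lineages, against 11.8% of all genes tested. Both shares were near those over all genes.

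Other abundant members of these lists overlapped between lineages. Ezh1, a Polycomb methyltransferase, was at 64.53, 109.94 and 29.62 TPM (SHF) and at 37.65, 20.69 and 14.3 TPM (CNC). Rnf2 was at 81.27, 16.75 and 67.89 TPM and at 28.1, 39.27 and 29.83 TPM. Eed, which binds the methylated histone, was at 29.79, 35.85 and 0 TPM and at 7.73, 2.16 and 10.77 TPM. Among the MLL complex subunits, Wdr5 was at 38.34, 33.36 and 86.88 TPM and at 24.3, 8.18 and 42 TPM, and Men1 was at 23.09, 17.69 and 95.01 TPM and at 11.75, 4.79 and 30.99 TPM. For Wdr5 and Men1 the highest library was SHF replicate 3. Ash2l was at 17.08, 1.49 and 3.58 TPM and at 29.51, 1.46 and 12.48 TPM.

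**Figure D5:**
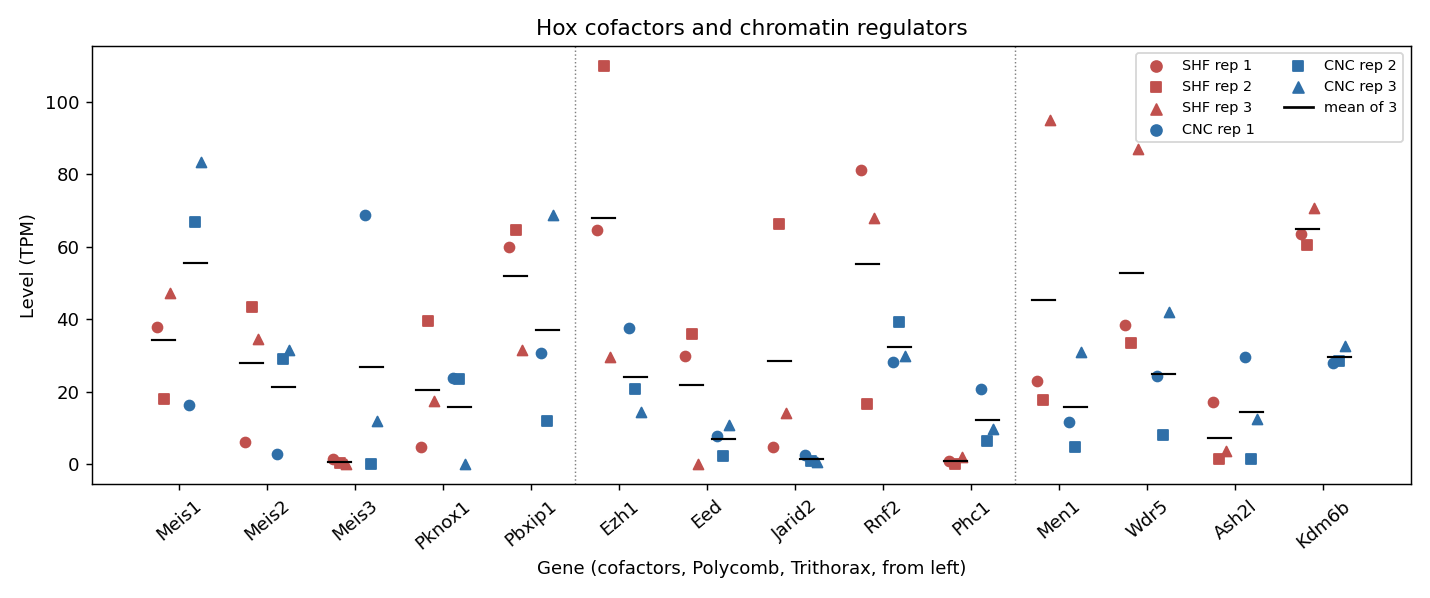
Level in TPM of Hox cofactors, Polycomb genes and Trithorax genes, separated by dotted lines, with 1 point per library (red SHF, blue CNC) and a black line at the mean of each lineage. Kdm6b shows 2 tight groups, at 60.37 to 70.67 TPM in SHF and 28.01 to 32.76 TPM in CNC, and Jarid2 and Phc1 are the other 2 genes whose lineages do not overlap.

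Of 14 genes for factors that set Hox domains or timing in the embryo, 6 were above 0 in some library, 4 were tested and 0 were called, with a median log2 fold change of 0.02. Egr2, which activates Hoxa2 and Hoxb2 in the hindbrain and is also an immediate early gene, was at 129.75, 31.69 and 44.99 TPM (SHF) and 46.53, 24.28 and 54.11 TPM (CNC). In the same order, Zbtb16 was at 2.15, 0.36 and 17.18 TPM and at 0.33, 20.05 and 6.54 TPM, and Gmnn was at 9.21, 0 and 21.03 TPM and at 0, 0 and 9.82 TPM. The caudal genes Cdx1, Cdx2 and Cdx4, which activate trunk Hox genes, and the forebrain and midbrain genes Otx1 and Otx2 were listed at 0 throughout.

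Genes beside the clusters ranged from 0 to levels above those of the Hox genes. Skap2, next to the 3′ end of cluster A, was at 45.67, 0 and 54.57 TPM (SHF) and 78.05, 14.81 and 57.76 TPM (CNC). Mtx2, next to the 3′ end of cluster D, was at 60.76, 46.2 and 82.79 TPM and at 33.67, 29.88 and 73.57 TPM, above every listed Hox gene in every library. Lnp, on the other side of cluster D, was at 0.87, 1.04 and 5.75 TPM and at 0, 10.18 and 8.65 TPM. Evx1 and Evx2, homeobox genes at the 5′ ends of clusters A and D, were listed at 0, as was Skap1 beside cluster B. Of 6 flanking genes in the matrix, 3 were tested and 0 were called, with a median log2 fold change of -0.69.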

How the data were processed

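Bulk RNA of sorted GFP+ cells was measured in 3 SHF and 3 CNC libraries. Per the paper's methods, the authors amplified RNA by SmartSeq2, ran RSEM 1.2.25 with bowtie2 alignment on mm10, and they deposited TPM per library; the annotation is not given in the sources used here. Columns were matched to libraries by library code. TPM keep no read number, so depth is unknown. The study calls the 3 libraries of a lineage biological replicates, and the labels do not say which mice each came from.

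From the TPM, SHF was set against CNC by limma 3.58.1 under R 4.3.3 (trend, Benjamini-Hochberg, threshold 0.05) on log2(TPM + 1), which understates changes of low genes, for the 10185 genes that reached 1 TPM in 3 or more libraries. A run on simulated normal values checked that the fit returned the average change put in, and not its error rate or power. Frequent values of 0 were not simulated. Members, the 6 gene lists (70 genes, of which 68 are rows) and the 63 cell type markers were chosen with earlier results of these data known. Named are the tested Hox genes, up to 4 tested genes of each list with the highest mean, those without overlap, and genes said to be chosen later. A single Hox row of the clusters outside the list, and some other genes that these rules would name, are not reported here. Alternatives were other pseudocounts, filters, scalings, weights, a replicate block and libraries left out. Python 3.11.15, pandas 2.3.3 and matplotlib 3.10.9 made tables and plots.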

Additional observations from a re-analysis of the deposited data

How the results depend on the processing

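No Hox gene and no gene of the partner lists passed the threshold in any limma fit run, and no Hox gene met the exclusive rule in any setting. Over all genes, 1 gene, Gm13305, passed with a pseudocount of 5 and 0 passed otherwise. The count of Hox genes whose lineages do not overlap ran from 0 to 2 when a library was left out, with 2 without SHF replicate 1 and 1 without CNC replicate 1 or 2, since fewer libraries have to be separated. Of 358 values of 24 named genes under the alternatives, 344 kept their sign and 14 changed it, all short of the threshold. Those were Hoxa3 (-0.01 without SHF replicate 3), Hoxaas2 (0.41), Skap2 (0.28) and Zbtb16 (0.35) without SHF replicate 2, Zbtb16 without CNC replicate 2 (0.43), Egr2 without SHF replicate 1 (-0.06), Pknox1 without CNC replicate 3 (-0.62), Ash2l without CNC replicate 1 (0.04), Meis2 with quantile normalization (-0.05), library weights (-0.32) or without CNC replicate 1 (-0.49), and Eed with a pseudocount of 0.1 (-0.28) or without SHF replicate 1 (-0.18) or 2 (-0.31). With single libraries left out, the log2 fold changes of these genes ran from -0.01 to 0.88 (Hoxa3), -1.26 to 0.41 (Hoxaas2), -0.49 to 1.34 (Meis2), -0.62 to 1.7 (Pknox1), -0.06 to 0.94 (Egr2), -1.56 to 0.43 (Zbtb16), -0.31 to 2.29 (Eed), -1.78 to 0.04 (Ash2l) and -2.62 to 0.28 (Skap2). The cause was not tested. Hoxa2 and Hoxb2 kept their sign in every setting but not their size: with libraries left out they ran from -3.22 (without CNC replicate 1) to -0.93 (without CNC replicate 3) and from -3.19 (without CNC replicate 2) to -1.16 (without CNC replicate 1), and with pseudocounts of 0.1 and 5 they were -2.88 and -1.02, and -3.74 and -1.06. With a library left out, the difference of the summed Hox levels ran from -22.61 TPM (without CNC replicate 2) to -6.83 TPM (without CNC replicate 3), that of cluster A from -10.93 to 0.47 TPM, cluster B from -16.91 to -5.16 TPM, group 2 from -25.79 to -14.58 TPM and group 3 from -0.91 to 7.07 TPM. Replicate numbers are shared by the lineages but did not pair the libraries, with correlations of the deviations of -0.0113, -0.00438 and -0.0106 for replicates 1, 2 and 3. With a replicate block, 0 genes of all and 0 Hox genes passed. Unknown depth and frequent values of 0 limit all comparisons.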
